A study of Mus musculus with 6 samples.

Results

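Long intergenic noncoding RNAs (lincRNAs) are transcripts that lie between protein-coding genes and carry no long open reading frame. The 77 described here are the well-measured ones of mouse quadriceps, out of 705 genes annotated as lincRNA and 20015 genes in the table. They were chosen by annotation and abundance: a lincRNA biotype, a gene on an autosome, and a mean of at least 50 counts over the 6 libraries. Small nucleolar RNA hosts and imprinted lincRNAs were dropped by name, which removed H19, Meg3, Snhg12 and Snhg20. Their abundance chose them and is therefore given as a description only. Just inside the threshold lay Gm36602 and Gm49797, each with a mean of 50 counts, and Gm36201 with 50.2, while E430024I08Rik (47.2), Gm4861 (47.7) and Gm49794 (48.6) lay just outside. A further 607 autosomal lincRNAs fell under it. All 77 members passed the filter on low counts.

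The 6 libraries are RNA of skeletal muscle, labelled as total RNA, 3 from quadriceps with an injury of the anterior cruciate ligament (ACL), a ligament of the knee joint. The other 3 are from non-injured quadriceps, and each group has letters A, B and C. The samples are labelled Mus musculus and the table lists mouse gene models, although the series' design text and the protocol for extraction name human muscle. The authors' table is headed as myonuclear RNA (RNA of muscle fibre nuclei), whereas no step of the labelled extraction separates nuclei. Which of these was sequenced cannot be told apart here, and it bears on the levels of nuclear lincRNAs such as Malat1 and of markers of other cell types. The labels give no strain, age, time after injury or surgery, nor what the letters mean. Whether each library is from an animal of its own is not labelled either, so p-values below reflect only how far these libraries differ, which may be technical.

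Many lincRNAs stay in the nucleus, where some scaffold nuclear bodies or act on the genes around them, and others leave it and bind proteins or microRNAs. Several are the primary transcripts from which microRNAs are cut, and in muscle the best known of these carry microRNAs of myogenic differentiation. Many others are known only as gene models, and 70 of the 77 members bear such a name.

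MicroRNA hairpins lie within 4 of the members, and their mature sequences (RefSeq, GRCm38.p6) show which microRNAs the expression values below touch. The seed, bases 2 to 8, is in capitals. The model 6720427I07Rik, on chromosome 13, holds 3 hairpins of the let-7 family on its own strand, and their 5p arms share 1 seed:
let-7a-5p: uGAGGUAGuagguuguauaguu
let-7d-5p: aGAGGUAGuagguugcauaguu
let-7f-5p: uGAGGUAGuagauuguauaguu
Gm28653, on chromosome 1, is the locus of the muscle transcript linc-MD1 and holds miR-206 and miR-133b, which differ in their seeds:
miR-206-3p: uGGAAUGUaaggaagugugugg
miR-133b-3p: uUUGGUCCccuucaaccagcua
Gm48742, on chromosome 9, has miR-100 on the opposite strand within its own exon, and 2900076A07Rik, on chromosome 7, holds miR-1839, an RNA also annotated as a small Cajal body RNA:
miR-100-5p: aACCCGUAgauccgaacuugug
miR-1839-5p: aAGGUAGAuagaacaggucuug
Of these 4 models, 6720427I07Rik, Gm48742 and 2900076A07Rik were lower in injured muscle once letters were blocked, and Gm28653 was not past the test. The mature microRNAs themselves were not measured.

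Promoter windows of 300 bases (250 before and 50 after the start in RefSeq) were found for 33 of the members, 44 windows in all. Those of 5031425E22Rik at chr5:23433287-23433586 (minus strand) and 2310065F04Rik at chr11:67120031-67120330 (minus strand) are shown because both RNAs were lower in injured muscle once letters were blocked, yet their windows differ in base composition. The first holds 24 CG dinucleotides, more than 80% of 32851 promoters, and the second 3, more than 23.3%. The RefSeq start of 5031425E22Rik lies within the gene as the deposited table bounds it, so this window is inside those bounds. Capitals mark the box CCAAT, the E-box pattern CANNTG and the TATA-box letters TATAAA on either strand, each spelled as searched, and matches may overlap:
5031425E22Rik: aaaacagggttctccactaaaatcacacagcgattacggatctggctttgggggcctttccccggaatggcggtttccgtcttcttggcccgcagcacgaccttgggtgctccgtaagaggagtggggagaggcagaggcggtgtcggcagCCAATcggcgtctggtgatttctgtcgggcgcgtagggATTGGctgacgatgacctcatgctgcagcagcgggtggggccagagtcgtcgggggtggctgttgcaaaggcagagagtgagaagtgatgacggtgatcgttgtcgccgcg
2310065F04Rik: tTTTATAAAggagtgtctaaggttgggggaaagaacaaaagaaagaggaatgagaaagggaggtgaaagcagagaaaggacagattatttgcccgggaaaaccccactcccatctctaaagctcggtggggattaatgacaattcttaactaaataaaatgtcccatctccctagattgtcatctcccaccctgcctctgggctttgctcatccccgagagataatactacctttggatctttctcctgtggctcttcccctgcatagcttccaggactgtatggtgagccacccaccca
CCAAT was found in 37.4% of all promoters and in 12 of the 44 member windows, CANNTG in 72.3% and 29, and TATAAA in 13.6% and 2. These matches describe letters only.

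Library totals ran from 6.45 to 8.75 M counts, with standard errors of members' log2 fold changes from 0.14 to 0.63 (median 0.23). All 12 muscle fibre markers of a list of contractile genes were measured. Summed, they gave 192633 to 200301 CPM in injured and 207255 to 214606 CPM in non-injured libraries. CPM are counts scaled to 1 common library total, with edgeR's TMM factors. Gene by gene, 5 of the 12 lay below 0 (median 0.01), and edgeR called none of them, with letters blocked or without. Most of each sum was Ttn, with a mean of 134025 CPM in injured and 143548 CPM in non-injured libraries (log2 -0.10, edgeR adjusted p = 0.748). Myh4 had means of 17820 and 22126 CPM (log2 -0.31, groups overlapping). Mitochondrial-genome RNA took 9.53% to 11.2% of counts in injured and 6.20% to 7.52% in non-injured libraries. All 14 macrophage markers tested had a log2 fold change above 0 (median 1.44), their sum was 137 to 225 CPM in injured and 60.0 to 76.2 CPM in non-injured libraries, and none was at 0 in all libraries. All 9 adipocyte markers were below 0 (median -1.01), with sums of 580.3 to 943 CPM in injured and 777 to 1250 CPM in non-injured libraries. Most of this sum was Plin4, with a mean of 677 CPM in injured and 873 CPM in non-injured libraries (log2 -0.37, groups overlapping). With letters blocked 4 of the 9 passed edgeR's test (0 without). All 5 erythroid markers tested were above 0 (median 1.37), with sums of 132 to 324 CPM in injured and 71.3 to 151 CPM in non-injured libraries. With letters blocked 4 of the 5 passed edgeR's test (1 without). The part of these differences in the lincRNA values was not tested, and in bulk tissue fewer cells of a type and less RNA per cell cannot be told apart.

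Most well-measured lincRNAs were lower in injured quadriceps, by a modest amount. The log2 fold change, injured minus non-injured, was below 0 for 65 of 77 members (84.4%). This share was 49.8% of all 16095 genes tested and 60.5% of the 9058 genes with at least 50 counts. The members' median was -0.43, against 0.00 for all genes and -0.07 for genes with at least 50 counts. In the 3 letter pairs taken one at a time, the members' median was -0.38 (A), -0.41 (B) and -0.42 (C), while that of all genes was -0.02, 0.01 and 0.00. The count of members lower in a pair was 59, 63 and 62, and 47 members (61%, against 21.9% of all genes) were lower in all 3 pairs. The groups did not overlap, with every injured library lower, for 21 members (27.3%, against 9.61%), and with every injured library higher for 2 (2.6%, against 11.9%). Among the 9058 genes with at least 50 counts, 1188 were lower and 645 higher without overlap.

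No single member passed edgeR's quasi-likelihood test of injured against non-injured libraries at a Benjamini-Hochberg adjusted p of 0.05. Of all genes, 0.715% were called higher and 0.0311% lower. The smallest adjusted p of a member in edgeR's quasi-likelihood test was 0.0681, for Gm48742. At an unadjusted p under 0.05 there were 28 lower members (36.4%, against 6.11% of all genes) and 4 higher (5.19%, against 9.25%). Among the 9058 genes with at least 50 counts, 822 were lower and 500 higher at that threshold. DESeq2 called 2 members lower, Gm17300 and Gm48742 (of all genes 0.466%), and 0 higher (of all genes 1.57%).

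Same-letter libraries of the groups deviated together, and with the letter as a block edgeR called 19 members lower (24.7%, against 2.65% of all genes) and 2 higher (2.6%, against 3.21%). Among the 9058 genes with at least 50 counts, the block gave 412 lower (4.55%) and 236 higher. Of the 19, the groups did not overlap for 11. With upper quartile scaling in place of TMM the block gave 11 lower (of all genes 1.93%) and 3 higher (3.65%), and the 8 lower calls lost were those of Gm26981, Gm26813, Gm43672, Carmn, 4930429F24Rik, Gm13490, Gm43597 and 2900076A07Rik. The counts depended on which pair entered: without the A libraries 11 fell (of all genes 2.03%) and 2 rose (2.08%). Without the B libraries 8 fell (1.29%) and 0 rose (2.41%), and without the C libraries 10 fell (1.83%) and 3 rose (2.6%). With both A libraries left out and no block, 4 were lower (of all genes 0.799%) and 2 higher (of all genes 0.999%). Gm26581, Gm48742 and 5031425E22Rik kept their call in each of these 3 fits, and also with DESeq2 and the block, which called 3 members lower (of all genes 1.16%) and 0 higher (1.38%). Gm26813, Gm43672, Carmn, 4930429F24Rik, Gm13490 and Gm43597 lost it in each. Of the other called members, Gm17300, Gm35576, Gm34455, Gm10076 and 2900076A07Rik lost it without the A libraries. Without the B libraries it was lost by B230312C02Rik, 2310065F04Rik, BC002059, AC160336.1, 6720427I07Rik, Gm536, Gm26981, Gm10076 and 2900076A07Rik, and without the C libraries by B230312C02Rik, BC002059, 6720427I07Rik, Gm34455, Gm536 and Gm26981. Below, "fell" and "rose" refer to the fit with the block.

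Among RNAs of nuclear bodies, Malat1, a lincRNA of nuclear speckles, was by far the most abundant member. It had 64281, 47164 and 49041 CPM in injured libraries A, B and C and 65522, 53837 and 57034 CPM in non-injured A, B and C. Letter A was high in both groups and the groups overlapped. Its log2 fold change was -0.14 ± 0.15 (SE, n = 3 per group, adjusted p = 0.722, edgeR's quasi-likelihood test). Neat1, the scaffold of paraspeckles, had 9573, 8525 and 7195 CPM in injured and 10669, 9230 and 8988 CPM in non-injured libraries, also overlapping. Its log2 fold change was -0.19 ± 0.15 (SE, edgeR's adjusted p = 0.572). Per kilobase of exon, Malat1 stood at 8040 CPM and Neat1 at 435, against 177 for Gm17300, the next-highest of the 70 members whose exon lengths could be matched. Malat1 and Neat1 took nearly all member counts, 4.59% to 6.50% and 0.674% to 1.06% of a library. The remaining 75 members summed to 1978, 1744 and 1892 CPM in injured and 2509, 2136 and 2341 CPM in non-injured libraries, and these sums did not overlap.

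Proteins that share these bodies were given by lists. Of 16 nuclear speckle and splicing proteins, 15 had a log2 fold change below 0 (median -0.21), none passed edgeR's test without the block, and with it 1 fell, the kinase Clk1 (-0.43 ± 0.10 SE, adjusted p = 0.0253). Of 14 paraspeckle proteins, 12 were below 0 (median -0.18) and 2 fell with the block, the RNA-binding protein Hnrnpa1 (log2 -0.55 ± 0.13, edgeR adjusted p = 0.0175) and the 3′ processing factor Cpsf6 (-0.46 ± 0.12, adjusted p = 0.0309). None of the paraspeckle list passed without the block. Of all genes with 100 to under 1000 counts, 63.7% were below 0 (median -0.08) and 4.83% fell with the block. For all genes with 1000 counts or more these values were 75.5%, -0.14 and 16.1%. Whether the lists differ from such genes was not tested. The lincRNA Miat, also of nuclear bodies but too low to be a member (mean 28.1 counts), went the other way, at 6.17 ± 2.33 CPM in injured and 1.87 ± 0.639 CPM in non-injured libraries (SD, n = 3 per group). Its adjusted p by edgeR's quasi-likelihood test was 0.0664 without and 0.0157 with the block.

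Members known to bind other regulators showed small differences. Oip5os1, the Cyrano RNA that binds miR-7, had 237, 175 and 196 CPM in injured and 241, 222 and 210.3 CPM in non-injured libraries, which overlapped, at a log2 fold change of -0.15 ± 0.15 (SE). The gene 2900097C17Rik is the mouse Norad, a cytoplasmic RNA that binds Pumilio proteins. It had 217, 181 and 215 CPM in injured and 187, 144 and 155 CPM in non-injured libraries. Each injured library was above the non-injured one of its letter, although the groups overlapped (log2 0.34 ± 0.15 SE, edgeR adjusted p = 0.308, and 0.0650 with the block). A near-copy, Gm7292, matches 51.6% of its transcript at 99.2% identity, so reads could be split between them. Pumilio proteins and Norad partners did not pass the test (5 genes, median 0.00).

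Lncpint, a lincRNA induced by p53, had 171, 169.6 and 212 CPM in injured and 239, 228 and 238 CPM in non-injured libraries. The groups did not overlap, yet its log2 fold change of -0.35 ± 0.14 (SE) was not past the test (edgeR adjusted p = 0.266, and 0.0585 with the block). Of 14 p53-linked genes, which include Lncpint, Neat1 and Pvt1, the median was -0.01 and 1 passed edgeR's test, Eda2r, a TNF-family receptor (log2 1.01 ± 0.21, adjusted p = 0.0454). Pvt1, the lincRNA beside the growth regulator Myc, had 5.36, 7.64 and 8.12 CPM in injured and 5.48, 8.27 and 11.1 CPM in non-injured libraries, overlapping, at log2 -0.23 ± 0.29 (SE). Without non-injured library C the value was 0.01.

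The muscle and microRNA loci held several of the members that fell. The gene 2310065F04Rik (ENSMUSG00000087410, chr11:67112461-67120080, mm10) is linc-Myh of the fast myosin cluster, 10.2 kb from Myh3 and 50.9 kb from Myh2. It had 36.7, 22.2 and 31.0 CPM in injured and 47.8, 38.3 and 45.7 CPM in non-injured libraries. Every injured library was below every non-injured one, and it fell by 0.57 ± 0.13 on the log2 scale (SE, edgeR with the block, adjusted p = 0.0181; 0.182 without). Its coding neighbours did not pass: Myh2, a fast myosin, had a log2 fold change of -0.01 and the embryonic myosin Myh3 1.27, with adjusted p of 0.979 and 0.130 in edgeR with the block.

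The let-7 host 6720427I07Rik (ENSMUSG00000097375, chr13:48532905-48546500, mm10) had 30.0, 23.5 and 27.8 CPM in injured and 38.3, 40.5 and 39.6 CPM in non-injured libraries. The groups were fully apart, and it fell by 0.55 ± 0.13 on the log2 scale (SE, edgeR with the block, adjusted p = 0.0258; 0.103 without). The model Gm37238 overlaps its span on the same strand (log2 -0.50, not past the test). Gm24111 shares 97 exon bases with it on the opposite strand, so its reads could be shared. Gm48742 (ENSMUSG00000111593, chr9:41405374-41532087, mm10) had 6.28, 5.81 and 8.83 CPM in injured and 11, 15 and 19 CPM in non-injured libraries. It fell 2.14-fold (log2 -1.10 ± 0.20 SE, edgeR with the block, adjusted p = 0.00528). On the opposite strand runs Mir100hg, the host of miR-100, which fell as well (63.4 ± 20.2 CPM in injured and 98.1 ± 24.3 CPM in non-injured libraries, SD, n = 3 per group, log2 -0.65, edgeR adjusted p = 0.00306 with and 0.208 without the block). The strand setting of the counting is not given in the sources used here, so reads of the 2 genes cannot be told apart where they overlap. Of the 2184 exon bases of Gm48742, 81 are shared with 3110039I08Rik and 80 with Mir100, both on the opposite strand. The neighbouring member Gm48740, 19.4 kb away, had a log2 fold change of -0.45 ± 0.22 (SE) and was not past the test.

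Gm28653, the linc-MD1 locus, had 11.9, 10.7 and 8.69 CPM in injured and 7.91, 14.8 and 11 CPM in non-injured libraries. The non-injured libraries enclosed the injured ones, and its log2 fold change was -0.11 ± 0.25 (SE). The host of miR-1839, 2900076A07Rik, had 9.92, 9.49 and 10.8 CPM in injured and 16.3, 17.8 and 13.7 CPM in non-injured libraries, fully apart. It fell by 0.65 ± 0.19 on the log2 scale (edgeR with the block, adjusted p = 0.0498). It shares 288 exon bases with the model Gm37829 on the opposite strand (log2 -0.36, not past the test). A further 127 are shared with the small Cajal body RNA of miR-1839, so its value is uncertain. The model B230312C02Rik, whose end lies 3.17 kb from miR-1a-1-5p on the opposite strand, had 4.13, 5.96 and 3.28 CPM in injured and 5.87, 14.5 and 10.2 CPM in non-injured libraries. Injured B and non-injured A crossed, so the groups overlapped, and it fell 2.23-fold (log2 -1.16 ± 0.26 SE, edgeR with the block, adjusted p = 0.0175). In a list of microRNA hosts 7 genes were tested (median -0.36), none of them a member. The list also named linc-MD1, but not as Gm28653, so the value of Gm28653 given above is not in this median. With the block 2 of the 7 fell, Mir100hg and Mir133a-1hg, and without it none passed.

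Overlapping or near-identical genes touch several of the other called members. Gm26581 (ENSMUSG00000097108, chr10:22212653-22217241, mm10) had 109, 65.1 and 73.6 CPM in injured and 161, 100.3 and 122 CPM in non-injured libraries. Letter A was high in both groups, which overlapped, while the 3 letter pairs gave log2 differences of -0.57, -0.62 and -0.72. It fell by 0.64 ± 0.11 (SE, edgeR with the block, adjusted p = 0.00263; 0.180 without). The lincRNA Gm10825 matches its whole transcript at 99.6% identity. Gm10825 itself had 2.88 ± 0.433 CPM in injured and 2.82 ± 1.27 CPM in non-injured libraries (SD, n = 3 per group). Its log2 fold change of 0.05 was not past the test. The antisense gene Gm26740, whose span covers Gm26581 without a shared exon base, fell by 0.51 on the log2 scale with the block. Gm17300 (ENSMUSG00000091021, chr4:132351772-132353382, mm10) had 159, 227 and 245 CPM in injured and 352, 269 and 369 CPM in non-injured libraries. The groups were apart, and it fell by 0.66 ± 0.14 (SE, edgeR with the block, adjusted p = 0.0119; 0.113 without). Without the A libraries the blocked value was -0.42 (edgeR adjusted p = 0.0698). On the opposite strand it shares 705 exon bases with Snhg3, 205 with the snoRNA Snora73b and 175 with the snoRNA Snora73a, so its value is uncertain. Snora73a fell by 0.65 on the log2 scale with the block (edgeR adjusted p = 0.00394). Snora73b (log2 -0.45, adjusted p = 0.0899) and Snhg3 (-0.71, adjusted p = 0.43) did not pass edgeR's test with the block.

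Called members with no shared exon base and no near-identical copy included 5031425E22Rik (ENSMUSG00000073147, chr5:23382308-23434269, mm10), a spliced model of up to 7 exons. The TEC model Gm42509 lies within its span on the opposite strand, so reads there could be shared. It had 77.9, 72.4 and 65.2 CPM in injured and 107, 101 and 94.4 CPM in non-injured libraries. The groups were apart and the pairs gave -0.46, -0.48 and -0.53. It fell by 0.49 ± 0.11 on the log2 scale (SE, edgeR with the block, adjusted p = 0.0130; 0.110 without). BC002059, a multi-exon model on chromosome 17, had 9.49, 5.96 and 7.55 CPM in injured and 14.3, 12.3 and 14.1 CPM in non-injured libraries, also apart. It fell 1.78-fold (log2 -0.83 ± 0.20 SE, edgeR with the block, adjusted p = 0.0234). Gm536, on chromosome 16, had 50.5, 33.3 and 27.2 CPM in injured and 51.4, 62.3 and 56.6 CPM in non-injured libraries. Its A libraries differed little and its B and C libraries by -0.90 and -1.05. It fell by 0.65 ± 0.16 (SE, edgeR with the block, adjusted p = 0.0295), and with the A libraries left out and no block by 0.98 (edgeR adjusted p = 0.00701).

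Carmn, a lincRNA of smooth muscle and heart, had 13.8, 9.63 and 13.1 CPM in injured and 19.9, 18.7 and 17.7 CPM in non-injured libraries. The groups did not overlap, and it fell by 0.63 ± 0.17 on the log2 scale (SE, edgeR with the block, adjusted p = 0.0428; 0.142 without). The 8 pericyte and smooth muscle markers tested did not pass with or without the block (median 0.14). Their sum was 324, 326 and 361 CPM in injured and 348, 369 and 369.8 CPM in non-injured libraries. None of them was at 0 in all libraries. Gm34455, 2.39 kb from the phosphatase gene Dusp1, had 13.6, 7.95 and 5.84 CPM in injured and 19.6, 13.2 and 12.6 CPM in non-injured libraries. Injured A lay within the non-injured range, and it fell by 0.76 ± 0.19 (SE, edgeR with the block, adjusted p = 0.0294; without injured A and without the block the value was -1.15), while Dusp1 did not pass the test (log2 -0.24). Gm35576, on chromosome 17, varied widely, with 25.3, 11.3 and 26.6 CPM in injured and 50.6, 16.9 and 32.3 CPM in non-injured libraries. It was lower in each pair and fell by 0.63 ± 0.16 (SE, edgeR with the block, adjusted p = 0.0287). Single libraries moved the value: without the block it was -0.65, and -0.23 without non-injured A, -0.35 without injured B and -0.99 without non-injured B. With the block and without the A libraries it was -0.41 (edgeR adjusted p = 0.218).

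The other called members were Gm26981, Gm26813, Gm43672, 4930429F24Rik, Gm13490 and Gm43597, with log2 fold changes from -0.92 (Gm43672) to -0.42 (Gm43597) in the fit with the block. Gm43672 is a single-exon model 0.509 kb from Tbl1xr1, and it had 5.36, 3.36 and 5.98 CPM in injured and 8.55, 8.50 and 10.6 CPM in non-injured libraries, with no overlap. Gm36201 was lower in every injured library, at 6.43, 2.14 and 5.84 CPM against 12.1, 6.89 and 6.56 CPM, yet it was not past the test (edgeR adjusted p = 0.324, and 0.0910 with the block).

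Only 12 members lay above 0, and 2 of them rose with the block. AC160336.1 (ENSMUSG00000115801, chr14:44544055-44637201, mm10) had 28.8, 42.1 and 26.7 CPM in injured and 23.1, 15.3 and 18.6 CPM in non-injured libraries, fully apart. It rose 1.70-fold (log2 0.77 ± 0.19 SE, edgeR with the block, adjusted p = 0.0246; 0.0987 without). Without the B libraries the blocked value was 0.42 (edgeR adjusted p = 0.245). It is a single-exon model of 93.1 kb that covers the gene Gm5624 and, on the opposite strand, Gm8247 and 3 pseudogenes, so its reads are uncertain. Gm10076, on chromosome 14, had 17.5, 13.1 and 13 CPM in injured and 10.1, 6.58 and 10.2 CPM in non-injured libraries. The groups did not overlap, and it rose by 0.71 ± 0.20 (SE, edgeR with the block, adjusted p = 0.0452; 0.169 without). Over 99.7% of its transcript it matches Rpl41, a ribosomal protein gene, at 99.5% identity, and Rpl41 itself had a log2 fold change of 0.45 ± 0.15 (edgeR with the block, adjusted p = 0.0881).

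Morrbid, a lincRNA known from myeloid cells and lying 15.8 kb from the pro-apoptotic gene Bcl2l11, had the largest positive value. It had 7.35, 15.7 and 9.97 CPM in injured and 7.91, 3.67 and 4.42 CPM in non-injured libraries. Injured B and C were high, and injured A was below non-injured A. Its log2 fold change was 1.05 ± 0.34 (SE) and it was not past the test (edgeR adjusted p = 0.165, and 0.0657 with the block). Without the A libraries it rose by 1.66 (edgeR without the block, adjusted p = 0.0137), and without the B libraries the blocked value was 0.52 (edgeR adjusted p = 0.465). The part of the macrophage markers' difference, given above, in this value was not tested. Bcl2l11 did not pass the test (log2 -0.27).

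Letter A stood apart in a number of members. In both groups the A library was the highest for 26 members and the lowest for 13, with 38 mixed. The same count over all genes was not made. The A libraries also deviated together over all 16095 genes (correlation 0.316), so this is not particular to the members. The model 5730419F03Rik had 48.4, 22.0 and 14.8 CPM in injured and 47.3, 17.2 and 11.5 CPM in non-injured libraries, so letters differed far more than groups. Gm42047 went the other way, with 6.34, 19.5 and 15.5 CPM in injured and 5.25, 14.3 and 16.2 CPM in non-injured libraries. Gm28872, which overlaps the small nuclear RNA gene Rnu11, was 21.9 CPM in non-injured A and 2.83 to 8.08 CPM elsewhere, and its log2 fold change of -1.06 ± 0.63 (SE) had the largest error of the members. Gm13490 was high in both A libraries (8.42 and 14.9 CPM) and low in the others (3.42 to 7 CPM), while its 3 pairs gave -0.81, -0.83 and -0.86.

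For the 58 members with a spliced transcript the median was -0.43 on the log2 scale, and 17 of them fell and none rose. The 12 single-exon members had a median of -0.25, with 1 that fell and 2 that rose. The 7 members that could not be matched to the annotation used here are in neither count. Members sharing no exon base with another gene (44) had a median of -0.43, those overlapping a gene on the opposite strand (21) -0.40, and those overlapping one on the same strand (10) -0.16. By mean count, the median was -0.42 for 42 members under 100 counts, where that of all such genes was 0.00. For 29 members from 100 to under 1000 it was -0.43 (all such genes -0.08), and for 6 members of at least 1000 counts -0.17 (all such genes -0.14). These differences between subsets were not tested.

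Other annotation classes of well-measured autosomal genes gave the frame for these values. The median was -0.06 on the log2 scale for 7903 protein-coding genes, with 59.2% below 0, and 3.28% fell with the block. Processed pseudogenes had a median of 0.08. The lower medians were those of other noncoding classes: -0.28 for transcript models still to be experimentally established (TEC), -0.27 for antisense RNAs, -0.34 for processed transcripts, -0.40 for sense-intronic RNAs, -0.36 for small nuclear RNAs and -0.60 for small nucleolar RNAs. The share that fell with the block was 24.7% of the members, 12.9% of TEC models, 14.2% of antisense RNAs, 16% of processed transcripts, 20% of sense-intronic RNAs, 30.8% of small nuclear RNAs and 68.6% of small nucleolar RNAs. The 243 autosomal lincRNAs that were tested but had under 50 counts had a median of 0.08. Of them 45.3% were below 0 and 0.823% fell. Genes of all classes also fell less often under 50 counts, as 412 of the 427 that fell had at least 50. The share below 0 was 49.8% over all genes tested (8009 of 16095) and 60.5% for those with at least 50 counts (5480 of 9058). Under 50 counts the share of all genes below 0 was therefore under 49.8%. All genes under 50 counts were not summarised as a class of their own, so lincRNAs under 50 counts were not set against their like. With the threshold set at 20 counts, 172 lincRNAs had a median of -0.24. The 15 mitochondrial-genome genes tested had a median of 0.69.

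Each member was set beside the genes next to it, with no test of the difference. The nearest gene in the table on each side of a member was taken, whatever its class. Those that were protein-coding and tested gave 82 pairs (59 members). Members whose nearest genes were all of other classes, or not tested, are in no pair. The neighbours' median log2 fold change was -0.12, and the member lay below its neighbour in 63 pairs, with a median difference of -0.33. With the block 6 of these 82 neighbours fell (of all genes 2.65%, of well-measured protein-coding genes 3.28%) and 2 rose (of all genes 3.21%). Within 10 kb, 41 pairs of 33 members gave a median of -0.17 for the neighbours, and the member was lower in 32. Across these 41 pairs the log2 fold changes had a Pearson r of 0.23 and a Spearman rho of 0.28. The pairs share the same libraries, and some share a member. The neighbour that passed edgeR's test without the block was Fzd7, a Wnt receptor 1.52 kb from Gm26813. Fzd7 had 65.2 ± 2.77 CPM in injured and 111 ± 10.7 CPM in non-injured libraries (SD, n = 3 per group), which is -0.76 ± 0.14 on the log2 scale (SE, edgeR's quasi-likelihood test, adjusted p = 0.0270). Gm26813 had 7.04, 3.67 and 5.84 CPM in injured and 11.9, 8.04 and 9.91 CPM in non-injured libraries, fully apart, and fell by 0.86 ± 0.23 with the block (edgeR adjusted p = 0.0380). A530013C23Rik, 0.758 kb from the transcription factor gene Cebpb, had a log2 fold change of 0.25 ± 0.23 (SE), and Cebpb -0.20, and neither passed the test.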

How the data were processed

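The submitters' processing notes name STAR 2.7.8a, Partek and DESeq2 and the builds mm10 and hg19, with no role or order. The values are estimated counts per gene as the authors deposited them in 1 table, and 24.9% of the members' counts are not whole. The lowest row maximum in the table was 10.0. The tool that counted reads and its strand setting are, in the sources used here, not given, nor is the annotation. No column of another sample was present. Printed spans of members are those of GENCODE M21 on mm10. It was matched by 70 of 77 members on name, start and end, the end to within 1 base. Distances to neighbouring genes used the positions of the deposited table.

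Estimated counts were rounded. Genes were kept by filterByExpr (16095 kept, 3920 not), scaled by TMM and tested two-sided on all of them with edgeR's quasi-likelihood test (edgeR 4.0.16, R 4.3.3), with Benjamini-Hochberg adjusted p under 0.05 as the threshold. The script was tested on simulated data. A standard error is the size of the log2 fold change divided by the root of F. Letter pairs were compared on log2 CPM (prior count 2). Alternatives were DESeq2 1.42.0, limma 3.58.1, other scalings and filters, and each library left out. Near-identical transcripts (at least 95% identity over at least 50% of a transcript) came from BLAST 2.17.0.

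Deviations from the group means correlated between same-letter libraries at 0.316 (A), 0.208 (B) and 0.113 (C) over 16095 genes, so the letters were taken to pair the libraries. What a letter stands for is not labelled.

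Members and lists were chosen with earlier results of these data known. Named members were those called with or without the block (up to 10 a direction by p), the 10 most abundant, those with standard symbols, and up to 5 a direction with the largest non-overlapping change. Other members, and the neighbours shown with them, were named after their values were seen.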

Additional observations from a re-analysis of the deposited data

How the results depend on the processing

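The members' median log2 fold change of -0.43 stayed below 0 in 23 of 23 alternatives. It ran from -0.44 to -0.32 with 1 library left out (-0.32 without injured B), and was -0.24 with a threshold of 20 counts. Without the block, no member was called by edgeR with other scalings, by limma-voom or with the totals freed of mitochondrial, 7SL and Malat1 counts. DESeq2 called 2 lower and edgeR with no filter 1. With 1 library left out, 0 to 2 members were called lower: Gm536 without injured A, Gm48742 and B230312C02Rik without non-injured A. Without both A libraries 4 were lower (Gm26581, Gm48742, B230312C02Rik, Gm536) and 2 higher (AC160336.1, Morrbid). The causes of these differences were not tested.

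Pairing the letters (replicate block) gave 19 lower and 2 higher of 77, and 427 lower and 516 higher of all genes, against 5 and 115 without it. Blocked fits added after seeing the data gave 11 lower and 2 higher without the A pair, 8 and 0 without B, 10 and 3 without C, 21 and 2 with DESeq2's size factors, 11 and 3 with upper quartile scaling, which moved the median of all genes to 0.05, and 3 and 0 in DESeq2. Of the 19 lower calls, 9, 6, 7, 19, 11 and 3 were shared with these fits.

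For the 25 named members, 434 values under 21 alternatives kept direction and side of the threshold, 90 passed it anew, and 1 changed sign (Pvt1, which ran from -0.48 without non-injured A to 0.01 without non-injured C). Some of the named members were chosen for passing with the block. Their passing anew in that fit was fixed by the choice, and the other blocked fits are not independent of it. The models on ribosomal RNA-like sequence (Gm42418, AY036118, Gm26917) are not among the members, so leaving them out changed nothing and is not among the 23. Means of 50 to 100 counts limit the precision for 42 members.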
